A study of Mus musculus with 6 samples.

Results

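The 10 genes described here are Sox9, Sox5 and Sox6, which encode the Sox transcription factors of cartilage, and Comp, Matn3, Matn4, Chad, Cytl1, Prg4 and Cilp, which encode proteins secreted into cartilage and other fibrous matrices. They were taken as a named list from a table of 23107 genes listed by symbol, in which all 10 were found, by a rule that names them and sets no threshold on a measured value. RNA was sequenced from aortic valves of outbred mice aged 4 months, as 3 libraries of controls and 3 of caAcvr1:Nfatc1Cre mutants. The mutants carry a constitutively active Acvr1 transgene that Cre switches on, together with Cre knocked into the Nfatc1 locus, whose activity the study places in the endocardium, in cushion and valve interstitial cells that derive from it and in cells of the leaflet-wall junction. The labels call the controls wild type, whereas the study used as controls mice that lacked the transgene, the Cre or both, and it is not stated which of these were sequenced, or whether valves were pooled. The p-values below therefore measure only the spread between these libraries. The question put to the data was whether transcripts of the cartilage programme differed between mutant and control valves.

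Sox9 is the transcription factor without which cartilage does not form, and it is also active in heart valve precursors, where it governs genes of the matrix. Sox5 and Sox6 are close relatives of each other that lack an activation domain of their own and work with Sox9 on cartilage genes. The matrix of valve leaflets, which bend and bear load, shares many components with that of cartilage, tendon and ligament, so transcripts of this kind are a normal part of valve tissue.

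In these valves the 10 genes covered a wide range of levels, from Cytl1, one of the most abundant transcripts of the tissue, to Matn3, which was close to absent. To show both ends of this range and the gene that varied most between libraries, the 250 bases before the annotated start of Cytl1 (chr5:37735269-37735518, plus strand), Chad (chr11:94564797-94565046, plus strand) and Matn3 (chr12:8947679-8947928, plus strand) are printed from the RefSeq promoter table of GRCm38.p6. Capitals mark a TATA box (TATAAA, on the other strand TTTATA) or a GC box (GGGCGG, on the other strand CCGCCC).
Cytl1: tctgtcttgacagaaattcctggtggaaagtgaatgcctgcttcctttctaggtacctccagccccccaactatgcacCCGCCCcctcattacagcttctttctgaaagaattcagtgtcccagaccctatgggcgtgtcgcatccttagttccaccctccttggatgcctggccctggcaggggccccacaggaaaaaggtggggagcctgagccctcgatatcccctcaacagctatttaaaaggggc
Chad: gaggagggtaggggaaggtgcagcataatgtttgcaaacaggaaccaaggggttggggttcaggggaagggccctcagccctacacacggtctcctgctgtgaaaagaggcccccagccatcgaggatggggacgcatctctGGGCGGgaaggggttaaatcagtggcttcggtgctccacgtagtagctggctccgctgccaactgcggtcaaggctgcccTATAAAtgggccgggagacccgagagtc
Matn3: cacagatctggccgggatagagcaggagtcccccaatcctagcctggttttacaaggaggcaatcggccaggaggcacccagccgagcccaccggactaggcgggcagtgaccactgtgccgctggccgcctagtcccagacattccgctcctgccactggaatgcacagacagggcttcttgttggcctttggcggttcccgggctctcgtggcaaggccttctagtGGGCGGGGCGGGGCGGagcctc

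Of 32851 such windows of 250 bases in that table, 12.4% held the TATA box letters on either strand, 32.7% held the GC box letters and 9.42% held AACAAT (on the other strand ATTGTT), the core letters that Sox proteins bind. Chad had a TATA box that began 28 bases before its start and a single GC box. Cytl1 had a single GC box and no exact TATA box. Matn3 had 3 GC boxes, which share a base with each neighbour, ending just before the start, and a GC content of 65.2% against a median of 52.4% over all windows. The Sox core letters were in none of these 3 windows, and these are matches of letters only. Of the 10 genes, 7 had windows in the table, 13 windows in all.

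Levels of different genes were compared as CPM (counts scaled to a common library size by the TMM method) per kilobase of annotated exon. Cytl1, a small secreted cytokine-like protein that chondrocytes make (chromosome 5, 37735519 to 37739820, GRCm38), stood highest of the 10 per length, with 543 ± 71.5 CPM per kilobase in the controls and 452 ± 23.5 in the mutants (SD, n = 3 each). It ranked 70 among 22607 genes with a length. Comp, the cartilage oligomeric matrix protein of the thrombospondin family (chromosome 8, 70373558 to 70382066), followed with 79.0 ± 37.4 and 72.5 ± 21.5 CPM per kilobase, and Chad, the collagen-binding leucine-rich repeat protein chondroadherin (chromosome 11, 94565047 to 94569127), with 78.5 ± 63.2 and 54.4 ± 8.65 CPM per kilobase (SD, n = 3 each). The lowest library of Cytl1, at 432 CPM per kilobase, lay above the highest libraries of Comp (118) and Chad (149). The ranges of Comp and Chad overlapped. For these genes and those below, differences between genes within each library were not tested.

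Prg4, which encodes the joint lubricant lubricin (chromosome 1, 150449412 to 150466165), Sox9 (chromosome 11, 112782224 to 112787760) and Cilp, the cartilage intermediate layer protein (chromosome 9, 65265180 to 65280605), formed a middle group. Over the 6 libraries their levels per length ran from 14.9 to 34.4 for Prg4, from 15.1 to 26.7 for Sox9 and from 12.2 to 28.0 CPM per kilobase for Cilp. The ranges of these neighbours overlapped. Matn4, a matrilin that joins matrix filaments (chromosome 2, 164389393 to 164405160), ran from 0.777 to 1.66, Sox5 (chromosome 6, 143828425 to 144781977) from 0.634 to 1.07 and Sox6 (chromosome 7, 115470872 to 116038796) from 0.710 to 0.969 CPM per kilobase, and their ranges overlapped as well. The exons of all annotated isoforms were joined for these lengths, 14.4 kb for Sox5 and 14.8 kb for Sox6, which lowers the level per length of a gene with many alternative exons.

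**Figure D1:**
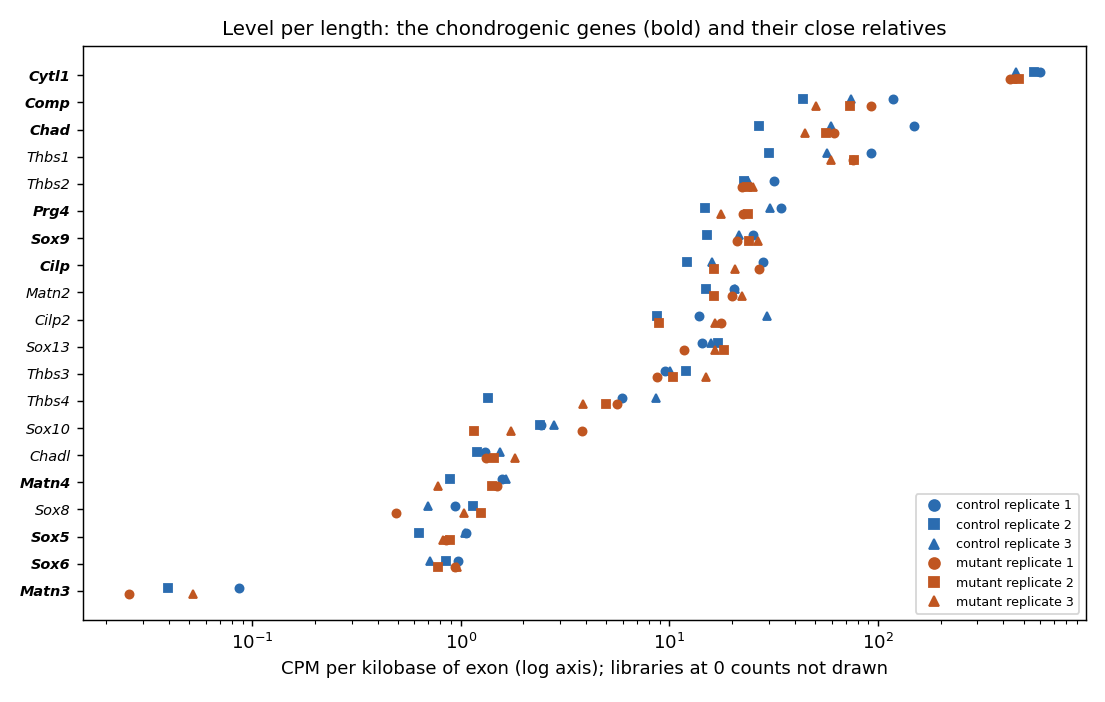
Level per length of the 10 chondrogenic genes (bold names) and their close relatives, as CPM per kilobase of exon on a log axis, 1 point per library. Cytl1 stands above every other gene drawn, the libraries of Comp, Chad and the relative Thbs1 overlap below it, and Matn3 lies at the foot of the plot, with its libraries at 0 counts left out, as is Matn1.

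Mutant and control valves were then compared gene by gene. Of the 10 genes, 9 had at least 10 counts in at least 3 libraries and entered the main test. In edgeR 0 of the 9 had an adjusted p under 0.05. The share was also 0% over all 15354 genes tested. Before adjustment, 0 of the 9 reached a p under 0.05, against 3.45% of all genes tested, and the smallest unadjusted p among them was 0.125, that of Cytl1. In DESeq2 an adjusted p under 0.05 was given to 0 of the 9 and to 0.169% of all genes with an adjusted p. In 0 of the 9 did the mutant CPM values separate from the control values, against 8.87% of all genes tested. Their median log2 fold change was -0.12, with 3 above and 6 below 0, beside a median of 0.0097 over all genes tested.

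Among the Sox factors, Sox9 was measured at 104, 62.3 and 88.8 CPM in control replicates 1, 2 and 3 and at 87.2, 99.1 and 110.5 CPM in the mutants of the same numbers. Only control replicate 2 lay apart, below the other 5 libraries, and the groups overlapped. The log2 fold change was 0.22 with a 95% interval from -0.24 to 0.68 (edgeR, adjusted p = 0.999), so the data leave room for anything between 0.846 times and 1.6 times the control level. The estimate was 0.04 without control replicate 2 and 0.39 without control replicate 1.

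Sox5 was measured at 15.3, 9.12 and 15.0 CPM in the controls and at 12.3, 12.9 and 11.8 CPM in the mutants, which lay between the lowest and the other controls. Its log2 fold change was -0.09 (95% interval -0.61 to 0.42). Sox6 was measured at 14.4, 12.6 and 10.5 CPM in the controls and at 13.8, 11.5 and 14.3 CPM in the mutants. The Sox6 libraries of both groups were interleaved, with a log2 fold change of 0.08 (95% interval -0.32 to 0.48). In edgeR the adjusted p was 0.999 for Sox5 and for Sox6. The direction of Sox5 turned to 0.03 without control replicate 1 and to 0.01 without control replicate 3, and that of Sox6 to -0.03 without control replicate 3.

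**Figure D2:**
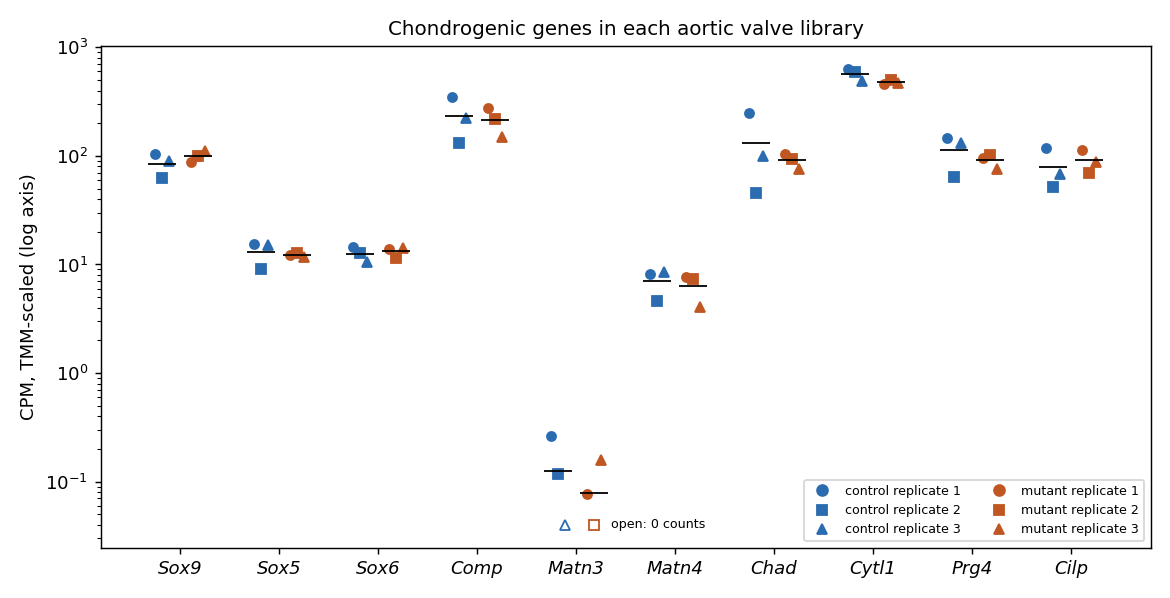
CPM of each gene in each library on a log axis, controls in blue and mutants in orange, with a bar at each group's mean and open symbols for 0 counts. The groups overlap in all 10 genes, and control replicate 2 (blue square) is the lowest control in 7 of the 9 genes tested.

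Cytl1, the most abundant of the secreted members, was measured at 635, 596 and 489 CPM in the controls and at 456, 505 and 473 CPM in the mutants. A single pair, mutant replicate 2 above control replicate 3, kept the groups from separating. The log2 fold change was -0.26 (standard error 0.15, edgeR adjusted p = 0.999), with a 95% interval from -0.62 to 0.09. It kept its sign in the 6 fits that each left out a library, from -0.37 to -0.18.

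Comp was measured at 351, 131 and 221 CPM in the controls and at 277, 219 and 150 CPM in the mutants. The controls hold both the highest and the lowest of the 6 values, so the mutants lie within the control range. The log2 fold change was -0.12 (95% interval -1.01 to 0.76), which turned to 0.29 without control replicate 1 and to 0.08 without mutant replicate 3.

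Chad had the widest spread of the 9 genes. It was measured at 250, 45.1 and 100.3 CPM in the controls, a 5.54-fold range, and at 104, 94.3 and 75.5 CPM in the mutants, a 1.38-fold range. A control range of at least 5.54-fold was seen in 3.55% of the genes tested. All 3 mutants again lay inside the control range. The log2 fold change of -0.53 had a 95% interval from -1.83 to 0.77 (edgeR adjusted p = 0.999), turned to 0.33 without control replicate 1 and was -0.94 without control replicate 2.

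Prg4 was measured at 147, 63.8 and 130 CPM in the controls and at 96.3, 101.6 and 76.2 CPM in the mutants, which fell between the lowest control and the other controls. Its log2 fold change was -0.32 (95% interval -1.03 to 0.39), and it kept its sign in the fits without each library, from -0.60 to -0.09. Cilp, whose product can bind TGF-beta, was measured at 119, 52.0 and 67.9 CPM in the controls and at 114, 69.6 and 88.3 CPM in the mutants. Control replicate 1 and mutant replicate 1 were the highest libraries of Cilp, and the log2 fold change was 0.19 (95% interval -0.58 to 0.95), which turned to -0.04 without control replicate 2 and to -0.01 without mutant replicate 1.

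The matrilins were the least abundant of the matrix genes. Matn4 was measured at 8.14, 4.59 and 8.57 CPM in the controls and at 7.72, 7.29 and 4.02 CPM in the mutants. These values rest on 232 to 436 counts in a control and 128 to 400 counts in a mutant. Each group held a low library, and the log2 fold change was -0.16 (95% interval -0.97 to 0.65), or 0.08 without mutant replicate 3. Matn3, a matrilin of growth plate cartilage (chromosome 12, 8947929 to 8972028), had 14, 6 and 0 counts in the controls and 4, 0 and 5 counts in the mutants. With so few counts it fell below the filter and was left out of the main test. The alternative without a filter covered all 18583 genes with any count, Matn3 included, and no member passed in it. The estimate of Matn3 in that fit is not given here. The counts of 0 allow up to 0.0652 CPM in control replicate 3 and up to 0.0759 CPM in mutant replicate 2 (3 counts each), for counting error only. How large a difference between the groups could be detected at this depth was not tested.

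**Figure D3:**
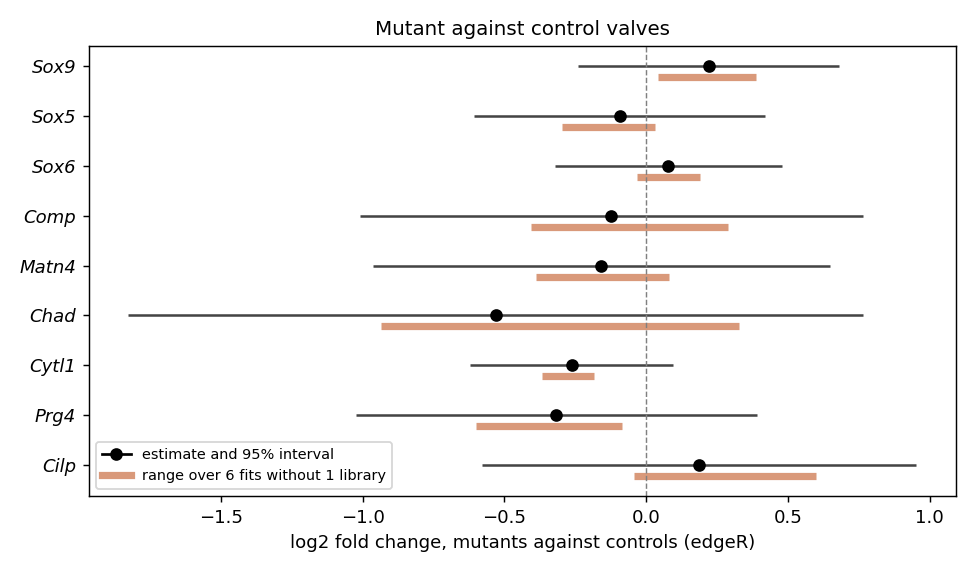
Log2 fold change of mutants against controls for the 9 genes tested, with the 95% interval of the edgeR fit (line) and the range over the 6 fits without 1 library (orange bar). Every interval covers 0, the narrowest are those of Cytl1, Sox6 and Sox9, and the widest is that of Chad.

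The genes varied more among the controls than among the mutants. In 8 of the 9 the highest control exceeded the lowest by a larger factor than the highest mutant did the lowest, which was so in 7678 of the 15354 genes tested. The exception was Matn4, with a 1.87-fold range in the controls and a 1.92-fold range in the mutants. Control replicate 2 was the lowest control in 7 of the 9 genes, all but Sox6 and Cytl1, against 38.7% of all genes tested. Control replicate 1 was the highest control in 8 of the 9, all but Matn4, against 32.5%. Comp and Chad had the same order of the 6 libraries, control replicate 1 first, then mutant 1, control 3, mutant 2, mutant 3 and control 2, an order that 73 of the 15354 genes tested had, Comp and Chad included. These counts were chosen after the values were seen and describe the libraries without a test.

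Markers of other cell types moved with these libraries. The 8 cardiac muscle markers summed to 29710, 9541 and 25420 CPM for control replicates 1 to 3 and to 36200, 16370 and 23920 CPM for the mutants. All 8 markers had their lowest control value in control replicate 2. All 7 melanocyte markers did too, and 1 of them separated between the groups, higher in the mutants, with sums of 177, 28.1 and 84.3 CPM in the controls and 84.8 to 201 CPM in the mutants. Smooth muscle markers summed to 14390 CPM in control replicate 2, against 7914 and 7090 in the other controls and 3888 to 7226 in the mutants, and 3 of 8 separated, all lower in the mutants. Mesothelial markers summed to 1259 CPM in control replicate 2, against 119 and 228 in the other controls and 145 to 543 in the mutants. No marker of these 4 lists was at 0 in any library. Red blood cell markers, 2 of 6 of which were at 0 in a library, summed to 22120, 6211 and 7836 CPM in the controls, highest in control replicate 1 and lowest in control replicate 2, and to 3041, 21630 and 12180 CPM in the mutants. Adipocyte markers summed to 555 CPM in control replicate 2, against 355 and 365 in the other controls and 265 to 439.8 in the mutants. All 8 had lower estimates in the mutants (median log2 fold change -0.44), with 0 separated. Other lists were one-sided too. All 8 cardiac muscle, all 7 melanocyte and all 7 macrophage markers had higher estimates, with medians of 0.248, 0.656 and 0.335. All 6 mesothelial markers had lower ones (median -0.735), as had 7 of 8 smooth muscle markers (median -0.874). Endothelial markers were highest in control replicate 2, at 2589 CPM against 1646 and 2060 in the other controls and 1938 to 2241 in the mutants. Macrophage markers summed to 702 to 815 CPM in the controls and 896 to 967 CPM in the mutants, and 4 of 7 separated, all higher in the mutants. By contrast, the valve interstitial or fibroblast markers summed to between 13620 and 14600 CPM in the controls and between 12240 and 15810 CPM in the mutants, with none at 0 in any library. Over all genes tested the groups separated in 8.87%, and in 4.83% the mutants were the lower group. No marker of these lists had an adjusted p under 0.05 in edgeR or DESeq2. The part of tissue composition in the spread of the 10 genes was not tested. Fewer cells of a type cannot be told apart from less RNA per cell in whole valves.

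Without control replicate 2 the groups separated in 3 of the 9 genes, Sox5, Matn4 and Prg4, against 16.8% of all genes tested. All 3 were then lower in the mutants, with log2 fold changes of -0.30, -0.39 and -0.60 (unadjusted p of 0.0801, 0.256 and 0.00592, adjusted p = 1.0 for each in edgeR). Leaving out control replicate 1 went the other way. Cilp alone then separated, against 18.5% of all genes tested, and it was higher in the mutants, with a log2 fold change of 0.60 (unadjusted p = 0.0442, adjusted p = 0.949 in edgeR). The median log2 fold change of the 9 genes was -0.297 without control replicate 2 and 0.19 without control replicate 1. Cytl1 alone separated without control replicate 3, against 16.8% of all genes tested, and without mutant replicate 2, against 19.9%, lower in the mutants both times. None of the 9 separated without mutant replicate 1 or mutant replicate 3.

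**Figure D4:**
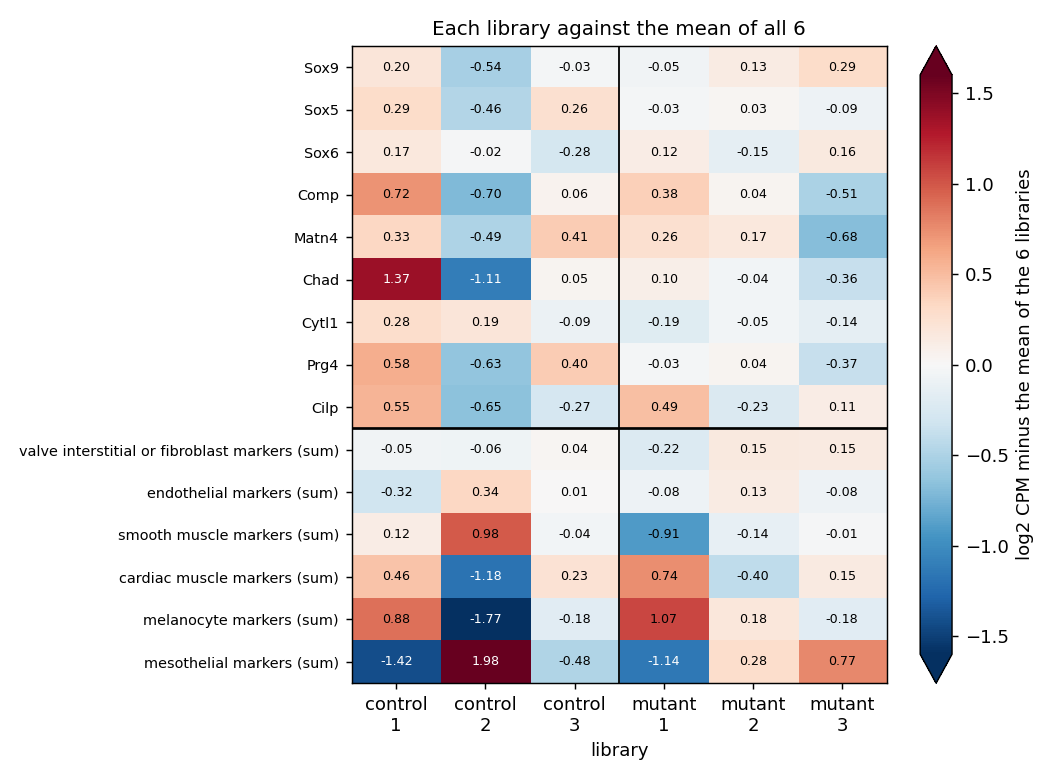
Log2 CPM of each library minus the mean of the 6 libraries, for the 9 genes tested (above the line) and for summed marker genes (below). Chad stands 1.37 above its mean in control replicate 1 and 1.11 below it in control replicate 2, where cardiac muscle and melanocyte markers are also low and smooth muscle and mesothelial markers are high.

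The relatives of these genes gave the level of their families in the valve. Of 11 close relatives 10 were tested, 4 higher and 6 lower in the mutants. The groups separated in 0 of the 10, against 8.87% of all genes tested. Among the Sox genes, Sox13, of the same subgroup as Sox5 and Sox6, stood at 15.8 ± 1.41 CPM per kilobase in the controls (SD, n = 3) and was more abundant per length than both. Sox8 and Sox10, of the same subgroup as Sox9, stood at 0.928 ± 0.226 and 2.54 ± 0.222 CPM per kilobase (SD, n = 3). Sox10 ranged from 3.54 to 11.6 CPM among the mutants and from 7.34 to 8.55 CPM among the controls.

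Matn2, a matrilin found in many tissues outside cartilage, was the main matrilin of the valve at 18.7 ± 3.17 CPM per kilobase in the controls (SD, n = 3), and Matn1, a matrilin of cartilage, had 1 count in mutant replicate 1 and 0 in the other libraries. Among the thrombospondins, Thbs1 stood at 60.0 ± 31.5 CPM per kilobase in the controls and 70.6 ± 9.36 in the mutants, in the range of Comp and Chad, and Thbs2 at 26.1 ± 4.82 in the controls (SD, n = 3 each). Thbs4 had a 6.44-fold range in the controls, with 4.43 CPM in control replicate 2 and 19.4 and 28.5 CPM in the others. Cilp2, at 59.9, 37.5 and 127 CPM in the controls, reached its highest value in control replicate 3, unlike Cilp. Thbs3 and Chadl had log2 fold changes of 0.11 and 0.18.

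Other genes of cartilage and tendon were compared in 4 lists, in which 5 of the 44 genes tested had groups that separated, against 8.87% of all genes tested. Of 16 other cartilage matrix genes 15 were tested, 9 higher and 6 lower in the mutants, and 1 separated. That gene was Mia1, a secreted protein of cartilage and melanoma cells, at 0.411, 0.890 and 0.826 CPM in the controls (22 to 45 counts) and 0.0965, 0.380 and 0.345 CPM in the mutants (5 to 15 counts), with an unadjusted p of 0.0651 in edgeR. Acan, the large proteoglycan of cartilage, was measured at 4.70, 20.8 and 6.48 CPM in the controls and at 3.53, 6.30 and 5.24 CPM in the mutants. It was highest in control replicate 2, where Comp and Chad were lowest. The log2 fold change of Acan was -1.088 (95% interval -2.435 to 0.259, adjusted p = 0.999 in edgeR). Its unadjusted p was 0.0977 in edgeR and 0.0488 in DESeq2. Without control replicate 2 the estimate was -0.151. Col2a1, the main collagen of cartilage, had from 0 to 126 counts per library. Its log2 fold change of 0.07 had a 95% interval from -3.79 to 3.93, too wide to place it.

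Of 12 chondrocyte regulators and enzymes 11 were tested, 5 higher and 6 lower in the mutants, and 1 separated, the forkhead factor Foxc1, at 146, 203 and 155 CPM in the controls and 112, 142 and 128 CPM in the mutants. Its log2 fold change was -0.40 (standard error 0.16, unadjusted p = 0.0413 and adjusted p = 0.999 in edgeR). Without control replicate 2, its highest library, it was -0.24 with an unadjusted p of 0.111. Of 11 genes of hypertrophic chondrocytes 10 were tested, 3 higher and 7 lower in the mutants, and 2 separated, against 8.87% of all genes tested. The other gene, Col10a1, fell below the filter and is named here after its values were seen. It had 14, 13 and 0 counts in control replicates 1, 2 and 3 and 0 counts in each mutant. Mef2c, a transcription factor of hypertrophic cartilage that is also used in muscle and endothelium, was measured at 81.0, 101 and 79.8 CPM in the controls and 71.1, 68.5 and 71.0 CPM in the mutants. The difference was -0.32 on the log2 scale (unadjusted p = 0.0303 and adjusted p = 0.999 in edgeR), and -0.19 without control replicate 2, with an unadjusted p of 0.069. Ibsp, a bone matrix protein, had 17, 14 and 54 counts in the controls and 14, 0 and 2 in the mutants, and its closest values, 0.277 and 0.270 CPM, hardly differed. Runx2, which drives hypertrophy and bone formation, stayed between 15 and 64 counts per library, with overlapping groups. The 3 genes with higher estimates in the mutants, named here after their values were seen, were Mmp13, Alpl and Runx3. Mmp13, a collagenase of hypertrophic cartilage, was measured at 3.21, 2.47 and 6.48 CPM in the controls and at 5.31, 11.9 and 6.69 CPM in the mutants, where only mutant replicate 1 lay below a control. Its estimate of 0.98 on the log2 scale had an unadjusted p of 0.0682 and an adjusted p of 0.999 in edgeR. Alpl, the alkaline phosphatase of mineralizing tissue, and Runx3 had log2 fold changes of 0.17 and 0.07, with overlapping groups.

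All 8 tendon and ligament genes were tested, 5 higher and 3 lower in the mutants with a median log2 fold change of 0.13, and 1 separated. Tnc, which encodes the matrix protein tenascin-C, was measured at 14.0, 18.8 and 17.1 CPM in the controls and at 7.51, 11.3 and 6.97 CPM in the mutants. Its log2 fold change of -0.95 (standard error 0.23) had the smallest unadjusted p of these lists, 0.00422, and did not pass over all genes, with an adjusted p of 0.999 in edgeR and 0.091 in DESeq2. The 5 genes of the 4 lists whose groups separated were lower in the mutants, as were 742 of the 1362 that separated among all genes tested (4.83% of those tested), and 0 of the 5 had an adjusted p under 0.05 in edgeR or DESeq2. Smooth muscle markers, 7 of 8 of which were also lower in the mutants, were given above, and their part in these values was not tested.

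Parts of 3 of the 10 genes overlap exons of another gene on the opposite strand. These are 1330 bases of Sox5 (9.3% of its exons) with Sox5os1, 204 bases of Prg4 (4.8%) with Tpr and 149 bases of Matn4 (2.9%) with Rbpjl. Whether the counting used strand is not given in the sources used here, so fragments from these stretches cannot be assigned to one gene with certainty.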

How the data were processed

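Aortic valve RNA of 3 control and 3 mutant libraries was measured by RNA-Seq. The authors used Bowtie2 for alignment to mm10, then Cufflinks and Cuffdiff 2.1.1 for quantification, and the submitters' processing notes also name TopHat2 2.0.13. The deposited values are estimated counts per gene, not scaled for library size, and between 1.66% and 1.87% per library were not whole and had to be rounded. Depth was 32218345 to 55728852 counts. The members of the list, the marker lists and the tests were chosen with earlier results of these data known.

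A gene entered the test with a minimum of 10 counts in 3 or more of the 6 libraries, which left 15354 genes. The main test was the quasi-likelihood F test in edgeR 4.0.16 in R 4.3.3, with TMM normalization, no covariates and Benjamini-Hochberg adjustment over all genes tested. Standard errors and 95% intervals were derived from its F statistic. The common biological coefficient of variation came to 0.278. The exact permutation test with 3 against 3 libraries cannot give a two-sided p under 0.1. Cuffdiff, which needs aligned reads, was not run. Alternatives were DESeq2 1.42.0, upper-quartile normalization, other filters on low counts, limma-voom (limma 3.58.1) plain or weighted by sample quality, a block for the replicate number, and the omission of each library. The steps were tested on simulated data.

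By rule the text names all 10 members, their close relatives, Acan, Col2a1 and Runx2, and of each other list up to 3 genes with the smallest p whose groups did not overlap. Snorc, Cnmd, Mia, Adgre1 and Hbb-bs were read under older symbols. Of the symbols, 97.8% matched GENCODE M21 (GRCm38, also called mm10), from which positions and exon lengths came. Of the other marker lists, 0 of 8 endothelial, 0 of 8 adipocyte, 0 of 7 Schwann cell and 0 of 5 red blood cell markers tested had groups that separated.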

Additional observations from a re-analysis of the deposited data

How the results depend on the processing

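The number of genes with an adjusted p under 0.05 was 0 in edgeR and 26 in DESeq2, and the cause was not tested. In edgeR 529 genes had an unadjusted p under 0.05. The other alternatives also gave 0 genes, and no member passed in any of them. The number of members whose groups separated ran from 0 to 3 when a library was left out, against 16.8% to 19.9% of all genes. The members' median log2 fold change had its extremes at -0.297 (control replicate 2 left out) and 0.19 (control replicate 1 left out), with 0.02 when mutant replicate 3 was left out. It ran from -0.205 to -0.059 in the alternatives that kept all 6 libraries. Replicate numbers were not taken as pairs in the main test. Same-numbered libraries deviated together with correlations of 0.289, 0.0822 and 0.0313, and differently numbered ones with -0.271 to 0.2. The value of 0.289 was the highest of all, so the correlations do not settle whether the numbers mark pairs. With the replicate block the median was -0.059 and 0 genes passed.

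Of 185 log2 fold changes of 27 named genes in the alternatives that kept all libraries, 8 changed sign and 177 kept both sign and call. They were Sox8 (0.005 with upper-quartile normalization, 0.076 with sample quality weights), Thbs4 (0.26 in limma-voom, 0.172 with the replicate block), Col2a1 (-0.358 in limma-voom, -0.431 with weights), Sox13 (0.021 with weights) and Matn2 (-0.011 with weights). Some estimates that kept their sign moved in size. Col2a1, at 0.067 in the main test, was 1.586 with the replicate block. Chad, at -0.53 in the main test, was -0.198 in limma-voom and -0.218 with the replicate block. In the other alternatives that kept all libraries Chad lay between -0.533 and -0.516. Without 1 library 25 of 162 changed sign. The ranges were 0.042 to 0.389 for Sox9, -0.366 to -0.183 for Cytl1 and -0.6 to -0.086 for Prg4, which kept their sign, and -0.297 to 0.031 for Sox5, -0.033 to 0.19 for Sox6, -0.408 to 0.29 for Comp, -0.39 to 0.081 for Matn4, -0.937 to 0.329 for Chad, -0.042 to 0.599 for Cilp, -0.29 to 0.3 for Sox8, -0.808 to 0.133 for Sox10, -0.162 to 0.136 for Sox13, -0.073 to 0.172 for Matn2, -0.082 to 0.698 for Thbs1, -0.229 to 0.015 for Thbs2, -0.142 to 0.268 for Thbs3, -0.596 to 0.408 for Thbs4, -0.582 to 0.351 for Cilp2 and -0.548 to 2.82 for Col2a1. Acan ran from -1.444 to -0.151, Foxc1 from -0.49 to -0.235 and Mef2c from -0.379 to -0.193, each nearest 0 without control replicate 2.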

Other observations

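Within the cartilage lists, some genes followed the opposite order among the controls from Comp and Chad. They were picked after their values were seen and have no test. Ihh, the hedgehog ligand of growth plate cartilage, was measured at 2.84, 11.4 and 3.26 CPM in control replicates 1, 2 and 3 and at 0.907 to 3.49 CPM in the mutants. Bmpr1b, a BMP type I receptor, was measured at 3.27, 14.0 and 4.89 CPM in the controls and at 2.05 to 5.29 CPM in the mutants. Like Acan, both were highest in control replicate 2. Lect1 (Cnmd), which encodes the cartilage protein chondromodulin, was measured at 0.970, 8.09 and 1.5 CPM in the controls and at 4.81, 0.708 and 5.97 CPM in the mutants. Clec3a, a lectin of cartilage, went with Chad in the controls, at 114.5, 16.8 and 70.1 CPM, and was measured at 63.9, 56.3 and 11.4 CPM in the mutants. Col11a1, a fibrillar collagen of cartilage, was measured at 5.93, 0.930 and 10.9 CPM in the controls and at 1.55, 3.09 and 1.63 CPM in the mutants.

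Hapln1, the link protein that joins proteoglycans to hyaluronan, was likewise picked after its values were seen. It was measured at 109.5, 173 and 107.5 CPM in the mutants and at 88.2, 80.8 and 113 CPM in the controls, where control replicate 3 lay above a pair of the mutants. Its log2 fold change was 0.47 (unadjusted p = 0.0713, adjusted p = 0.999 in edgeR).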
